A study of Homo sapiens with 12 samples.

Results

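One control array given neither drug, control replicate 2 of samples labelled PC3, was set against the 11 other arrays of the same experiment. PC3 is a human prostate cancer cell line. The submitters titled this array with weak signal. A gene was counted above when its signal on control replicate 2 was at least 200 and at least 4 times the highest of the 11 others. A gene was counted below when the lowest of the 11 others was at least 200 and at least 4 times the signal of control replicate 2. Of 19775 genes, 391 (1.98%) were above and 276 (1.4%) below, 667 in all. The genes were thus chosen by these signals themselves, and there is 1 array on one side, so the differences between control replicate 2 and the others are given as a description with no test.

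The experiment held 3 arrays of cells given Wee1 inhibitor II at 2.5 µM, 3 of cells given 17-AAG at 40 nM, 3 of cells given both, and 3 of controls that received vehicle per the protocol. Wee1 inhibitor II blocks Wee1, a kinase that restrains entry into mitosis, and 17-AAG blocks the chaperone Hsp90. Wee1 inhibitor II preceded 17-AAG by 24 h, and harvest followed 17-AAG by 48 h. No genetic change is named for any group, and nothing states whether replicates were separate cultures, so p-values reflect only how far these samples differ among themselves, possibly for technical reasons.

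Pigment cells arise from the neural crest. The transcription factors SOX10, PAX3 and MITF direct a program that includes the melanin enzymes TYR and TYRP1, the melanosome proteins PMEL and MLANA, and the RAB proteins that move melanosomes. Prostate epithelium instead depends on HOXB13 and FOXA1, and epithelia in general carry EPCAM, keratins and junction proteins. PC3 is known for homozygous deletions that remove CTNNA1, the gene of the adhesion protein alpha-catenin, and STAT3, a transcription factor gene downstream of cytokine receptors.

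On these genes the labels and the data part. Control replicate 2 had MLANA, PMEL, SOX10, CTNNA1 and STAT3 under a signal of 32 and had HOXB13, FOXA1 and EPCAM at 677 or more. The 11 other arrays showed the opposite on each of these genes, with pigment cell genes among their brightest transcripts and CTNNA1 and STAT3 at 819 or more. That goes against the PC3 label of those 11 arrays. The arrays are called below by their labels, with no other cell type name given to them.

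The weak signal in the title was visible in few measures. Control replicate 2 had 19.9% of probe sets at a signal of 200 or more, against 18.9% to 19.9% on the 11 others, and 57.2% under 32, against 56.2% to 59.8%. Its median signal was 20.8, against 17.7 to 23.1. Its 18 hybridisation controls averaged 10.24 (log2), just under the 10.28 to 10.73 of the others, and its brightest probe set reached 11629, against 12616 to 17908. The 3-prime to 5-prime difference of the ACTB probe sets, a measure of RNA integrity, was 0.65 (log2), inside the 0.57 to 1.05 of the others. Across probe sets, which are not independent replicates, Pearson's r of log2 signals was 0.824 to 0.832 between control replicate 2 and each other array and at least 0.912 among the 11. The trimmed mean of every array was 150, so the arrays had been scaled to one level before deposit, and a difference in the amount of RNA between arrays cannot be told apart from that scaling.

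**Figure D1:**
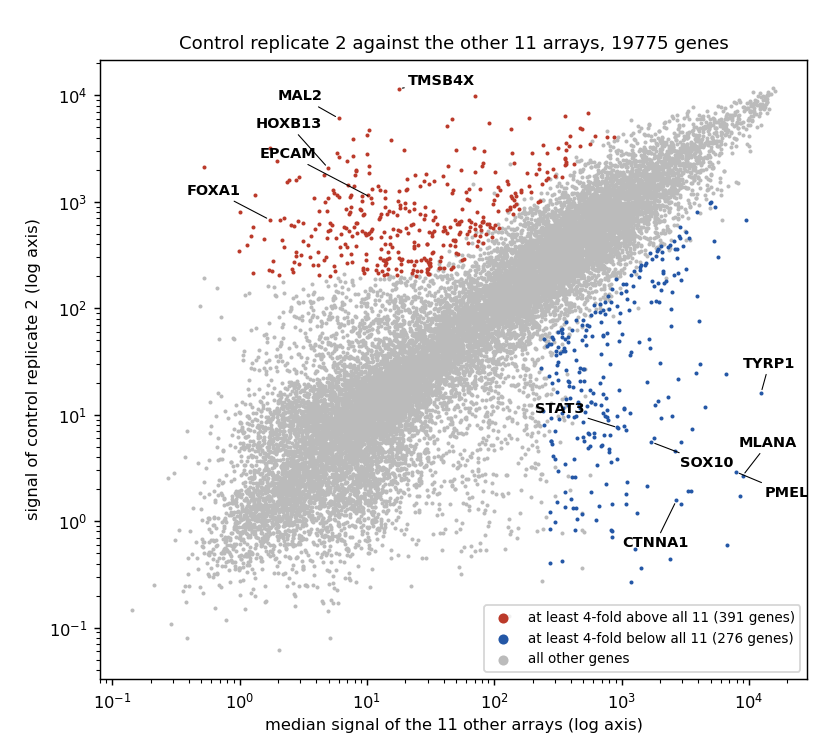
Each point is 1 of 19775 genes, with the signal of control replicate 2 on the vertical axis and the median signal of the 11 other arrays on the horizontal axis, both on log axes. The 391 red points are genes above every other array and the 276 blue points are genes below every other array, with labelled examples such as TMSB4X at 11546 against a median of 17.8 and TYRP1 at 16 against a median of 12440.

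The separation in the plot of all genes was wide on both sides. The 391 genes above had a median signal of 634 on control replicate 2, while the median of their medians over the other arrays was 22.6. In 176 of these 391 genes all 11 other arrays were under 32, a level that most probe sets do not exceed. The 276 genes below had a median of 25 on control replicate 2, against 753 on the others, and 149 of them were under 32 on control replicate 2. When signals under 32 were set to 32 before a ratio was taken, all members still passed 4-fold, with a median of at least 9.75-fold above and 8.19-fold below. Ratios that use this floor are given below as "at least", since the dim signal is near background. At 16-fold without the floor, 171 of the 391 and 137 of the 276 genes were still counted.

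Pigment cell genes held 8 of the 15 widest gaps below. Of 36 pigment cell genes measured, 31 reached a signal of 200 on some array, and 26 of these were below every other array at the 4-fold threshold. None was above. Another 4, TRPM1, MC1R, TFAP2A and CITED1, were lower than all 11 arrays without meeting the rule. Only MLPH, which links RAB27A to myosin and also serves other secretory cells, lay inside the range of the 11, with a signal of 1736 against 676 to 1761. The summed signal of the list was 3690 on control replicate 2, against 55603 to 93468 on the 11 others. In such bulk RNA, fewer cells of a type and less RNA per cell cannot be told apart. Its median difference from the other arrays' median was -5.22 (log2), beside -0.10 for all genes at a signal of 200 or more on any array.

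The melanin enzymes and 2 further melanosome genes came first among those described. TYRP1, which stabilises tyrosinase and acts late in melanin synthesis, had a signal of 16 on control replicate 2, against 11119 at the lowest, 12440 at the median and 15390 at the highest of the others, a gap of at least 347-fold. TYR, the enzyme that starts melanin synthesis, had a signal of 29.8, against 1950, 4123 and 5104 (at least 60.9-fold). The 2 enzyme genes were therefore near background on control replicate 2 and among bright transcripts on every other array. GPNMB, a melanosome glycoprotein gene, had a signal of 23.9, against 4253, 6602 and 7938 (at least 133-fold). GPR143, a melanosomal receptor gene, was dimmer throughout, with 1.80 against 432, 1088 and 1512 (at least 13.5-fold).

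The promoters of these 4 genes are printed because each holds, at 2 places, the letters CATGTG, the core of the M-box that MITF binds in pigment cell genes. The sequences are RefSeq promoters on GRCh38.p14, from 250 bases before to 50 after the gene's start, written 5′ to 3′ along the gene. Capitals mark CATGTG or, where the match is on the other strand, CACATG. TYR lies at chr11:89177625-89177924 on the plus strand, TYRP1 at chr9:12693135-12693434 on the plus strand, GPNMB at chr7:23246525-23246824 on the plus strand and GPR143 at chrX:9765798-9766097 on the minus strand.
TYR: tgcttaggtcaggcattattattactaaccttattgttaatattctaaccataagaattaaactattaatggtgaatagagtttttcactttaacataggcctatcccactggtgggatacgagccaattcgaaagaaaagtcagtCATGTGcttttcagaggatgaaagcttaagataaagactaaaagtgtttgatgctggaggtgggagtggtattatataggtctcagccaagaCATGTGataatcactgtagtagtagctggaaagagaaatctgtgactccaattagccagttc
TYRP1: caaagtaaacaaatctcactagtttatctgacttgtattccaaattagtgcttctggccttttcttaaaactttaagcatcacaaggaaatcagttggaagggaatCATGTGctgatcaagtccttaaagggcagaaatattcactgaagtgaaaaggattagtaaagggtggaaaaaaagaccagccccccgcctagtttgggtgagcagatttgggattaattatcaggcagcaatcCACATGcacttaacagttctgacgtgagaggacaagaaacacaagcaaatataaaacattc
GPNMB: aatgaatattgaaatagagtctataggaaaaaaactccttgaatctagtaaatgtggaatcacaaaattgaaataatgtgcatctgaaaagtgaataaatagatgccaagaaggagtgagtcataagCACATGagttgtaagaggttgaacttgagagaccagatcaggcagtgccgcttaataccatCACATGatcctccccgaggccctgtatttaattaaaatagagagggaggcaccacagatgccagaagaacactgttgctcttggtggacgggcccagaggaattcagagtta
GPR143: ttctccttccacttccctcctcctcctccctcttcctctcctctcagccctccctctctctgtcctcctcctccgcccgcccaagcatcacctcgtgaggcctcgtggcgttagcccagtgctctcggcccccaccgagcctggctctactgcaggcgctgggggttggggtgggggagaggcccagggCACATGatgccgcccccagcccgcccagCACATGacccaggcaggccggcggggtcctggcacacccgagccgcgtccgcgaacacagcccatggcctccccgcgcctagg

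Across gene sets the motif was described by its share. CATGTG on either strand was in 8.40% of the 15384 promoters found for measured genes and in 6.31% of those of genes at 200 or more on any array. It was in 6 of 19 promoters found for the pigment cell genes below (31.6%), which were TYR, TYRP1, GPNMB and GPR143 with 2 matches each and EDNRB and BCL2A1 with 1 each. Over the whole sides the shares were 8.22% (25 of 304) for genes above and 10.9% (22 of 201) for genes below. None of 9 promoters of epithelial genes above held it. The related E-box CACGTG, which does not overlap CATGTG, was in 1 of these 19 pigment promoters, against 8.90% of all. The SOX core ACAATG was in 2 of the 19, against 8.10% of all, and the AP-1 site TGANTCA in 1, against 5.84%. A match is a string of letters in this window and was not tested as a binding site.

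The structural and regulatory pigment genes followed the enzymes. MLANA, a melanosome membrane protein gene, had a signal of 2.67 on control replicate 2, against 2865, 8923 and 9916 (lowest, median and highest of the others), at least 89.5-fold. PMEL, whose product forms the fibres on which melanin is laid down, had 2.90, against 3694, 7901 and 9203, at least 115-fold. Both lay at single-digit signals on control replicate 2 and at 2865 or more on each of the 11. RAB38, a small GTPase that delivers melanin enzymes to melanosomes, had 1.92, against 1730, 3520 and 3815.

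Among the transcription factors, SOX10 had a signal of 5.54, against 1290, 1713 and 1975 (at least 40.3-fold), and PAX3 had 5.13, against 362, 568 and 686. MITF, which drives the melanin enzyme genes, was lower by less: its signal was 303 on control replicate 2, against 2455, 5755 and 7219, an 8.10-fold gap from the nearest array. MITF thus stayed well over 200 on control replicate 2 while its partners SOX10 and PAX3 were near background. Among the 26 pigment genes that met the rule, the smallest gaps were those of RAB27A, a GTPase of melanosome transport and of secretion in other cells, with 182 against 811, 1735 and 4327 (4.46-fold), and of the adhesion gene MCAM, with 196 against 913, 1378 and 1553 (4.67-fold). S100B, a calcium-binding protein gene of pigment and glial cells, had 5.49, against 2088, 2947 and 3859 (at least 65.2-fold).

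Neural crest and glial genes did not move as 1 block. Of 8 such genes at 200 or more, 6 were lower and 2 higher than all 11 arrays. L1CAM, a neural adhesion gene, had a signal of 21.7, against 1505, 2796 and 3879, and MBP, a myelin protein gene, 1.87, against 351, 576 and 1333. CRABP2, a retinoic acid binding protein gene, went the other way, with 251 against 8.55, 31.3 and 48.1. SOX9, a transcription factor gene of neural crest and of epithelia, was also higher, at 1558 against 516 to 965, without reaching 4-fold.

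Cancer testis antigens, proteins normally restricted to the germ line and made by many tumours, were a further group below. All 6 such genes at 200 or more were lower than the 11 arrays, and 5 met the rule, with a list median of -8.80 (log2). MAGEA6 had a signal of 11.9 on control replicate 2, against 3856, 4556 and 5233. MAGEA12 had 1.44, against 2456, 2917 and 3259, and CTAG2 had 1.94, against 2351, 3313 and 4101. MAGEA11 was dimmer on the 11 arrays, at 266 to 539, with 0.83 on control replicate 2. PRAME, an antigen gene first described in melanoma, kept a signal of 184 on control replicate 2, against 2229, 2950 and 3833. The MAGEA genes are close copies of one another, so their probe sets may share signal.

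The other leading genes below had varied roles. QPCT, an enzyme that cyclises the first residue of peptides, had a signal of 1.74, against 5297, 8573 and 9885 (at least 166-fold). IGFBP7, a secreted binding protein gene of the IGF system, had 0.60, against 3320, 6682 and 8705 (at least 104-fold). CRYAB, a small heat shock protein gene, had 24.5, against 2131, 3842 and 4542, and GPM6B, a membrane protein gene of neural and pigment cells, had 9.79, against 1637, 2488 and 3739. Each of these 4 was under 32 on control replicate 2 and over 1600 on all the others.

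The 2 measured genes that PC3 lacks were both below. CTNNA1 had a signal of 1.57 on control replicate 2, against 2559 at the lowest, 2692 at the median and 5040 at the highest of the 11 others, at least 80.0-fold. STAT3 had 7.54, against 819, 940 and 1296, at least 25.6-fold. Within the 11 arrays the CTNNA1 signals of the 3 Wee1 inhibitor II arrays, 4576, 5040 and 4717, stood over the 8 others, which ran from 2559 to 2992.

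The genes next to STAT3 in the annotation were low together on control replicate 2. Among the 13 measured genes of this stretch, STAT3 included, 10 were lower than all 11 arrays. Over all measured genes 4723 of 19775 were lower, and 2940 of the 8086 at 200 or more on any array. As many of the 13 genes around SOX10 were lower, so the count is not particular to STAT3. Next to STAT3, the paired transcription factor genes STAT5A and STAT5B had signals of 19.7 and 11.4. The 11 arrays ran from 210 to 424 for STAT5A and from 86.9 to 209 for STAT5B. CAVIN1, a coat protein gene of caveolae, had 2.60, against 241 to 942. RAB5C, of early endosomes, had 7.64, against 771 to 1112, and NAGLU, a lysosomal enzyme gene, had 53.5, against 262 to 391. HSD17B1 lay within the range, at 187 against 121 to 193. HCRT also lay within it and KCNH4 over it, at 18.3 against 2.38 to 13.1, both at signals too low to read. Toward one end COASY and MLX kept signals of 312 and 314, against 520 to 783 and 686 to 1189.

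Around CTNNA1 the low signals were less even. SIL1, a chaperone cofactor gene, had a signal of 19.5, against 174 to 243, and EGR1, an immediate early gene, had 27.0, against 150 to 1599. HSPA9, a mitochondrial chaperone gene, had 1610, against 4332 to 5508, and ETF1, a translation release factor gene, had 879, against 1710 to 2346. MATR3 had 196, against 284 to 450, while PAIP2 lay within the range. CTNNA1 was the only one of its 13 neighbouring genes to meet the rule. DNA was not measured, so copy number and transcription cannot be told apart in either region.

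**Figure D2:**
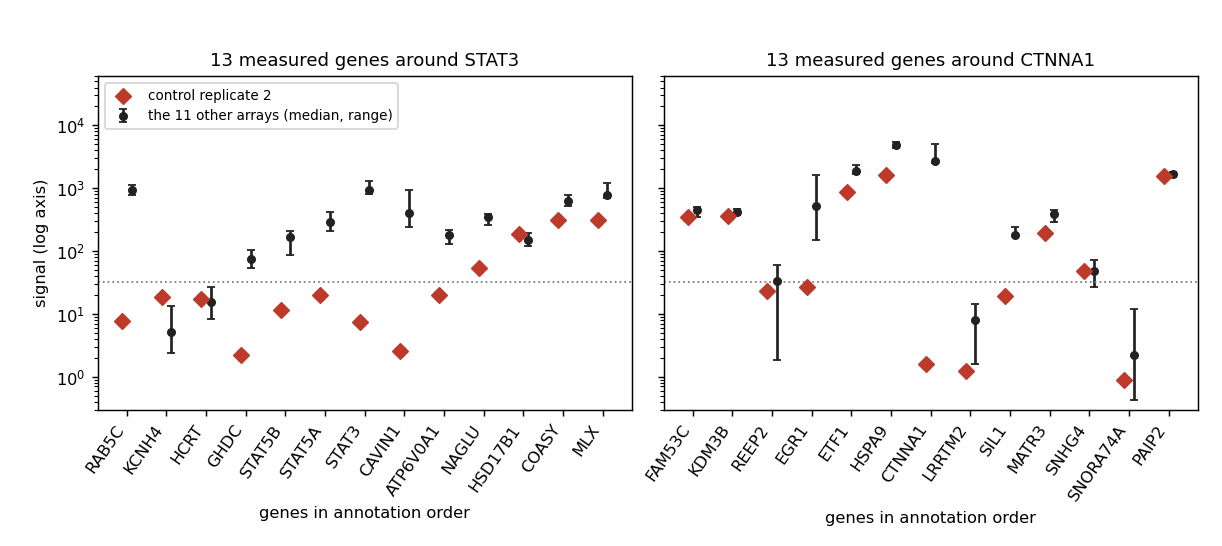
Signals (log axis) of the 13 measured genes around STAT3 (left) and CTNNA1 (right), in the order of the RefSeq annotation; diamonds are control replicate 2, points and bars the median and range of the 11 other arrays, and the dotted line is a signal of 32. Next to STAT3, RAB5C, STAT5A, CAVIN1 and NAGLU also met the rule for genes below, while next to CTNNA1 no further gene did. GHDC, STAT5B and ATP6V0A1 next to STAT3, and SIL1 and EGR1 next to CTNNA1, lay at least 4-fold below every other array without the floor. They missed the rule because their lowest signal on the 11 others was under its signal minimum.

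Prostate lineage genes lay on the upper side. Of 28 measured, 10 reached 200 on some array, and 8 of these were higher on control replicate 2 than on all 11 others, 3 of them by the rule. HOXB13, a homeobox gene of prostate epithelium, had a signal of 2087 on control replicate 2, against 2.14, 4.94 and 11.3 (lowest, median and highest), at least 65.2-fold. FOXA1, a pioneer transcription factor gene of glandular epithelium, had 677, against 0.74, 1.73 and 5.84 (at least 21.2-fold). STEAP2, a metalloreductase gene of prostate cells, had 217, against 0.84, 2.63 and 16.4 (at least 6.79-fold). On the 11 arrays all 3 genes were under 32.

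The 5 others above the range had smaller gaps. STEAP1, a relative of STEAP2, had a signal of 716, against 197 to 582, and GATA2, a transcription factor gene of prostate and blood, 280, against 105 to 153. SLC45A3 had 205, against 42.3 to 97.8. TRPM8, a cold-sensing channel gene used as a prostate marker, was the exception, with 15.7 against 163 to 409. The prostate-specific antigen gene KLK3 was low on every array, at 79.9 on control replicate 2 and 41.8 to 90.2 on the others, as was KLK2, at 17.9 against 4.42 to 26.7. The summed signal of the prostate list was 6558, against 1660 to 2881.

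Next to HOXB13, PRAC1, a small gene of prostate and colon, had a signal of 2891, against 1.18 to 13.4, at least 90.3-fold. HOXB7, a homeobox gene further along the same cluster, lay on the other side, with 7.15 against 716, 1086 and 1424. Of 7 HOX genes at 200 or more, 2 were above the range, 4 below and 1 within. Beside FOXA1, MIPOL1 had a signal of 264, against 18.1 to 42.2.

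Epithelial genes were the listed group with the most members above. Of 50 measured, 18 reached 200 on some array, 16 of these were higher than all 11 others and 13 met the rule, with none below. EPCAM, the epithelial adhesion molecule gene, had a signal of 1096, against 5.33, 10.8 and 26.2, at least 34.3-fold. MAL2, a gene of apical sorting in polarised cells, had 6091, against 0.44, 6.01 and 15, at least 190-fold. SPINT2, a membrane protease inhibitor gene, had 1703, against 0.61, 2.94 and 21.0, at least 53.2-fold. These 3 were dark on every array but control replicate 2.

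The keratin and junction genes had narrower gaps. KRT8, a keratin of simple epithelia, had a signal of 615, against 25.8, 35.7 and 45.5 (13.5-fold from the nearest array), and its partner KRT18 had 2238, against 453 to 650, short of the rule. DSP, a desmosome gene, had 815, against 18.4, 32.9 and 79.2, and LAMB3, a basement membrane laminin gene, had 668, against 26.1, 54.6 and 70.0. EGFR, a receptor of the epidermal growth factor, had 563, against 3.96, 20.3 and 26.5, and CD24 had 751, against 1.54, 9.29 and 16.4. SFN, a 14-3-3 gene of epithelia, was already present on the 11 arrays, at 99.2 to 165, and had 2306 on control replicate 2.

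Some epithelial genes were not higher. ESRP1, an epithelial splicing factor gene, had 48.5, against 142 to 728, and ERBB2 lay within the range, at 130 against 101 to 247. The epithelial cadherin gene CDH1 and the keratin gene KRT19 were low on all 12 arrays, with signals of 5.55 and 1.58 on control replicate 2, against at most 13.2 and 7.81. The summed signal of the epithelial list was 23015, against 3224 to 4092.

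**Figure D3:**
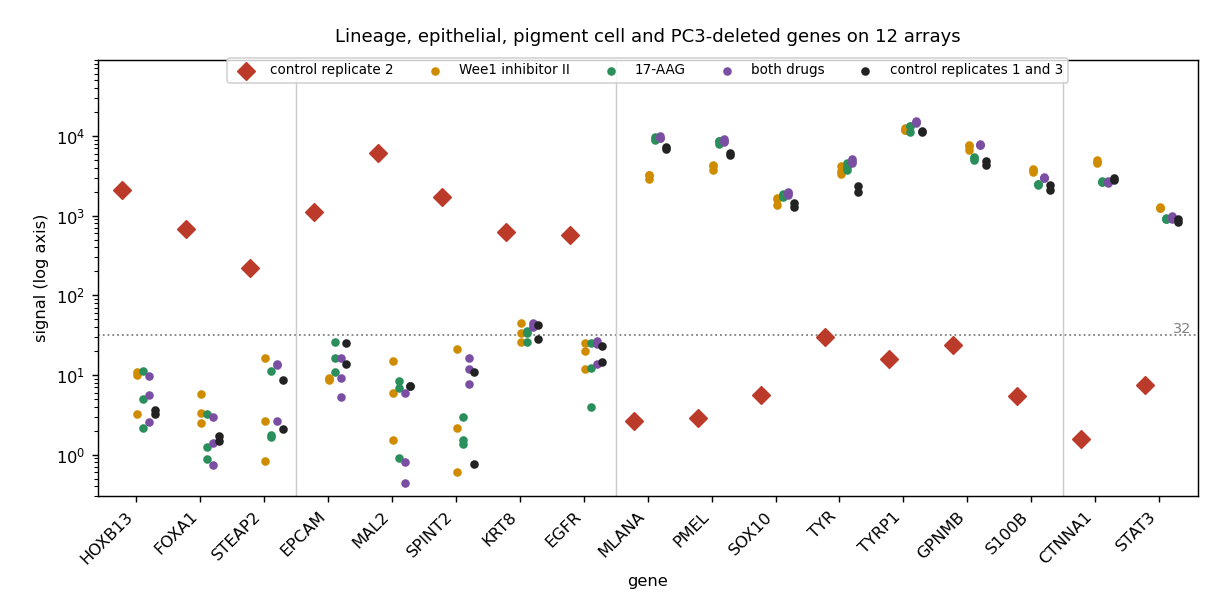
Signals (log axis) of 17 lineage, epithelial, pigment cell and PC3-deleted genes on all 12 arrays; diamonds are control replicate 2, small points are the 11 other arrays coloured by group, and the dotted line is a signal of 32. Control replicate 2 lies above every other point for the 8 prostate and epithelial genes on the left and below every other point for the 9 genes on the right.

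The 6 widest gaps above were that of the epithelial gene MAL2, given before, and those of 5 genes outside the epithelial list. TMSB4X, an actin-binding peptide gene, had a signal of 11546 on control replicate 2, against 12.4, 17.8 and 38.3, a 301-fold gap; no other probe set at 200 or more measured this gene. DYNLT3, a dynein light chain gene, had 4682, against 1.43, 10.4 and 14.4. PRSS3, a trypsinogen gene whose close copies can share signal, had 4266, against 2.07, 10.0 and 15.8. PLAU, the urokinase gene, had 3867, against 4.59, 7.79 and 27.5, and HAS3, a hyaluronan synthase gene, had 3826, against 6.96, 15.5 and 29.1.

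Several of the 15 genes with the widest gaps above encode secreted proteins. INHBB, an activin subunit gene, had a signal of 3187, against 0.69 to 3.52, and FST, the gene of the activin antagonist follistatin, had 5944, against 20.4 to 81.5. SULF2, which trims heparan sulfate, had 2686, against 0.68 to 17.9, and RBP4, the retinol carrier gene, had 2628, against 1.97 to 28.3. TFF1, a trefoil peptide gene of mucosal epithelia, had 2408, against 2.59 to 13.4. The remaining genes of the top 15 were PKIB, an inhibitor of protein kinase A, at 3046 against 3.12 to 34.4, PHACTR3, at 2802 against 4.91 to 12.6, and ADIRF, at 2430 against 1.25 to 23.1.

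Receptors and ligands of growth factors divided between the sides. Of 21 such genes at 200 or more, 12 were above the range and 6 below it, and 9 met the rule. EPHA2, an ephrin receptor gene of epithelia, had a signal of 1779, against 19.4, 24 and 62.6, whereas its relative EPHA3 had 2.24, against 512, 757 and 1768. EGFR was above, whereas ERBB3, a partner receptor that is needed in the neural crest lineage, had 147, against 1036, 2042 and 2466. MET, the hepatocyte growth factor receptor gene, had 2988, against 37.4, 83.6 and 378. The ligand gene VEGFC had 798, against 5.64, 16.1 and 30.7, and the receptor genes ROR1 and MST1R had 613 and 281, against at most 71.9 and 18.2. TYRO3 had 60, against 267, 316 and 365.

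Cytokine genes were all on one side among those that met the rule. Of 6 at 200 or more, 5 were above the range, 4 of them by the rule, and CXCL8 lay within it, at 524 against 24 to 753. IL1B and IL18, 2 interleukins of the IL-1 family, had signals of 824 and 775, against at most 46.8 and 17.1. The neutrophil-attracting chemokine genes CXCL1 and CXCL6, neighbours on chromosome 4, had 234 and 305, against at most 26.8 and 8.65. Blood cell genes gave no member: none of 15 reached 200 on any array, and their summed signal was 235 on control replicate 2, against 261 to 297. None of 11 endothelial genes reached 200 either, with a sum of 214 against 109 to 218.

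Matrix and adhesion genes split within families. Of 20 integrin, laminin and cadherin genes at 200 or more, 4 were above and 4 below by the rule. The integrin genes ITGA1, ITGA2 and ITGA3, whose products pair with the beta 1 chain to bind collagen or laminin, had signals of 1012, 1199 and 430, against at most 30.5, 218 and 91.2. ITGA9 and ITGB3 had 10.7 and 11.5, against at least 315 and 276. LAMA1, a laminin chain gene, and CDH19, a cadherin gene of neural crest derivatives, had 6.67 and 0.83, against at least 406 and 306. COL6A3, a collagen gene on the fibroblast list, had 1971, against 1.28, 8.20 and 20.1, whereas LUM, a small matrix proteoglycan gene of the same list, had 55.8, against 294, 713 and 1819.

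Mesenchymal genes were not simply the reverse of the epithelial ones. Of 11 at 200 or more, 7 were higher and 4 lower on control replicate 2 than on all others. ZEB2 and SNAI2, transcription factor genes used both in mesenchymal transition and in the pigment lineage, were below by the rule, with signals of 20.1 and 290, against 409 to 916 and 1510 to 2214. Their relatives ZEB1 and TWIST1 were higher, at 366 against 12.5 to 155 and 624 against 155 to 287. AXL, a receptor kinase gene, had 2268, against 39.7 to 720, while the intermediate filament gene VIM was bright on all arrays, at 6073 against 8015 to 11929.

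Some gene families, named here after their values were seen, had members on opposite sides. RAB27B was above while RAB27A, RAB31, RAB38 and RAB5C were below. SOX7 was above while SOX5, SOX6 and SOX10 were below. IGFBP3, IGFBP4 and IGFBP6 were above while IGFBP2 and IGFBP7 were below. Of 10 collagen genes at 200 or more, 6 were above and COL9A3 was below.

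Among genes of functions that all growing cells share, the ribosomal, proteasome, and mitosis and replication lists supplied no members. Of all genes at 200 or more on any array with a known chromosome, 4.84% were above and 3.41% below by the rule. None of 50 cytosolic ribosomal protein genes at 200 or more met the rule, although 42 were lower on control replicate 2 than on all 11 arrays. The median difference over the 50 was -0.59 (log2). None of 28 proteasome genes met it (median -0.41), nor any of 45 mitosis and replication genes (median -0.88). Of these 45, 31 lay within the range of the other arrays, 13 under it and 1 over it. That range spans the drug groups and was wide: the list's summed signal was 32768, against 21086 to 71261 with a median of 53550. The 11 HLA and antigen presentation genes at 200 or more had 7 within the range and a median of -0.12. Of 22 heat shock genes at 200 or more, 2 met the rule, which is not under the share of all genes of this brightness. They were the small heat shock protein genes HSPB8 (9.46 against 452 to 1059) and CRYAB. GAPDH had a signal of 7079, against 8376 to 11863, and ACTB 8446, against 7936 to 11192. Among all 8086 genes at 200 or more on any array, 2659 (32.9%) lay within the range of the 11 others, 2487 over it and 2940 under it.

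**Figure D4:**
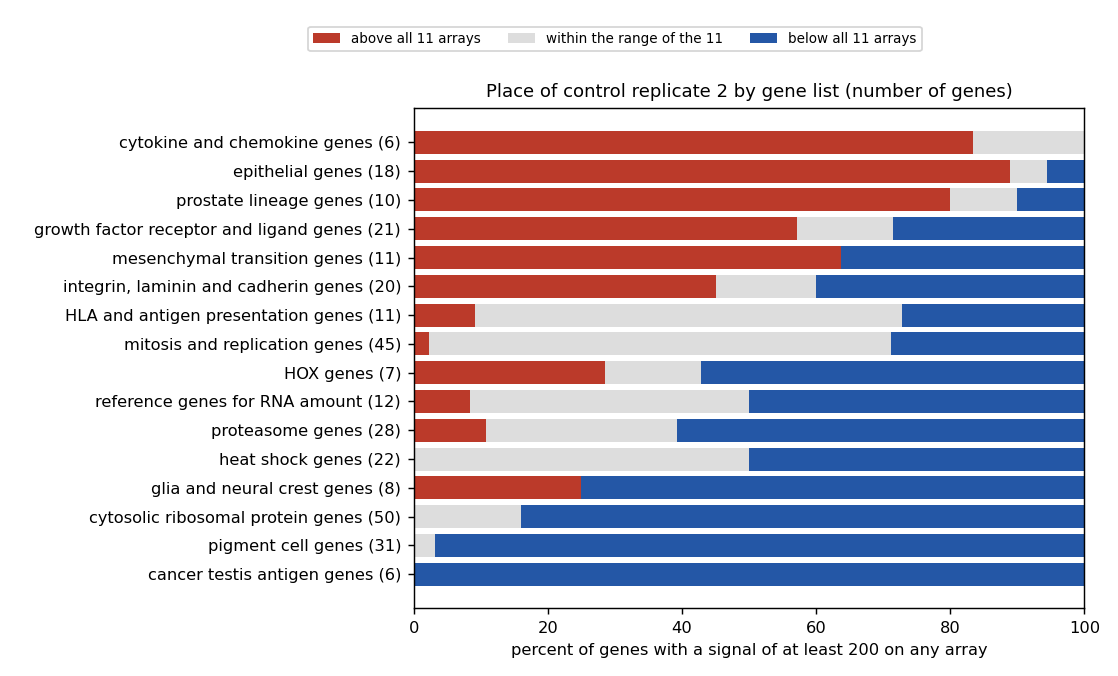
For 16 gene lists with at least 6 genes at a signal of 200 or more on any array (number in brackets), the bars give the percent of those genes for which control replicate 2 lay above all 11 other arrays, within their range, or below all 11. Epithelial, prostate and cytokine genes lay mostly above, pigment cell and cancer testis genes lay almost wholly or wholly below, and most mitosis and replication genes lay within the range.

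Members were unevenly spread over chromosomes of the RefSeq annotation. Among genes at 200 or more on any array, 4.84% were above, with 11.2% (37 of 329) on chromosome 10 and 1.30% (4 of 308) on chromosome 16. Genes below made up 3.41%, with 6.10% (10 of 164) on chromosome 13 and 3 of 283 genes on chromosome 14. The median difference of such genes between control replicate 2 and the other arrays ran from -0.84 (log2) on chromosome 22 to 0.49 on chromosome 14. Runs of at least 3 neighbouring genes of this brightness on one side numbered 5. On chromosome 10 they held CSTF2T, DKK1 and LNCAROD, and also ZSWIM8, CAMK2G and PLAU, and on chromosome 4 CXCL6, CXCL1 and MTHFD2L, all above. IRX3, CRNDE and LPCAT2 on chromosome 16, and STAT5A, STAT3 and CAVIN1 on chromosome 17, were below.

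Other probe sets of the same genes mostly gave the same side. Of 391 genes above, 115 had a further probe set at 200 or more, and in all 115 every such probe set lay above the range of the 11 arrays, in 107 at least 1 by 4-fold. Of 276 genes below, 115 had one, and in 110 every such probe set lay below the range. PIGF, an enzyme gene of the GPI anchor pathway, was the 1 gene with no further probe set below the range. No gene had probe sets that met the rule on opposite sides. Just inside the threshold above were WNK4 (4.00-fold), GRAMD1B (4.02-fold) and TPD52L1 (4.03-fold), and just outside were SNX21 (3.96-fold), SDC1 (3.94-fold) and SLC22A23 (3.93-fold). Just inside below were RPL22L1, PARVB and SLC7A5 (each 4.02-fold), and just outside were DUSP10 (3.98-fold), MICAL1 (3.97-fold) and MPDZ (3.96-fold).

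How the same genes differed between the drug groups was tested on the 11 other arrays. The rule used the lowest or the highest of these arrays as its limit but not their drug groups, so the genes tested were filtered on the same values, and their counts of calls are a description. Each drug group was compared with control replicates 1 and 3 in limma, with Benjamini-Hochberg adjustment over all 19775 genes and a call at an adjusted p under 0.05. The 3 comparisons share the same 2 control arrays, so their results are not independent. Genes below were at 200 or more on all 11 arrays by the rule, so their share called is set beside that of genes with a mean signal of 200 or more on these arrays (bright genes). Of the genes above, 34 of 391 had a mean of 200 or more there, and the rest were too dim for precise fold changes.

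With Wee1 inhibitor II, 158 of the 276 genes below were called (57.2%), 90 higher and 68 lower, against 24.9% of all genes (14.5% higher and 10.3% lower) and 46.9% of bright genes (22.8% higher and 24.1% lower). Of the 391 genes above, 89 were called (22.8%), 74 higher and 15 lower. The pigment cell genes divided: of the 26 that met the rule, 13 fell and 8 rose, and over all 36 measured 15 fell and 9 rose, with a median of -0.22 (log2) for the 26, against 0.12 for all genes. The transport gene RAB27A fell furthest, with signals of 877, 825 and 811 with Wee1 inhibitor II, against 3015 and 3333 in control, a log2 change of -1.92 ± 0.08 (SE, limma adjusted p = 1.44e-05). All 3 treated arrays lay under both control arrays.

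MLANA had signals of 3198, 2865 and 3232 with Wee1 inhibitor II, against 6770 and 7331 in control (log2 change -1.19 ± 0.09, limma adjusted p = 0.000103). PMEL had 4198, 3694 and 4251, against 5803 and 6067 (-0.55 ± 0.09, limma adjusted p = 0.00347). In both genes the groups did not overlap. TYR moved the other way, with 4188, 3328 and 3672 against 1950 and 2377 (0.79 ± 0.14, limma adjusted p = 0.00457), as did ERBB3, with 2453, 2124 and 2466 against 1036 and 1056 (1.16 ± 0.13, limma adjusted p = 0.000537). SOX10 was not called (0.18 ± 0.11, limma adjusted p = 0.328). CTNNA1 rose by 0.72 ± 0.08 (limma adjusted p = 0.000476) and STAT3 by 0.55 ± 0.08 (limma adjusted p = 0.00183). The STAT3 call was lost with each array centred on its median (0.32, adjusted p = 0.0652) and with probe sets of a gene averaged (0.34, adjusted p = 0.0686).

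After RAB27A, the members with the next smallest p were outside the pigment list. H2AC6, a histone gene above on control replicate 2 with a signal of 3045, had 378, 367 and 365 with Wee1 inhibitor II, against 63.4 and 56.3 in control (2.63 ± 0.12, limma adjusted p = 1.66e-05). NEGR1, a neural adhesion gene, changed by 3.97 ± 0.27 from a control signal under 10, and CAMK2N1, an inhibitor of CaM kinase II, by 1.68 ± 0.14 (limma adjusted p = 7.15e-05 and 0.000179). Among genes below, DEPDC7 had signals of 1596, 1949 and 1666, against 351 and 299 (2.42 ± 0.13, limma adjusted p = 3.09e-05), and PHACTR1, a regulator of actin and protein phosphatase 1, had 531, 555 and 497, against 2227 and 2376 (-2.12 ± 0.11, limma adjusted p = 3.09e-05).

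With 17-AAG, 142 of the 276 genes below were called (51.4%), 120 higher and 22 lower, against 16.7% of all genes (9.93% higher and 6.8% lower) and 33.9% of bright genes (18.7% higher and 15.2% lower). Of the 391 genes above, 45 were called (11.5%), 28 higher and 17 lower. Of the 26 pigment cell genes that met the rule, 16 rose and none fell, and over all 36 measured 20 rose and none fell, with a median of 0.41 (log2) for the 26, against 0.01 for all genes. TYR had signals of 3748, 4561 and 4123 with 17-AAG, against 1950 and 2377 in control (0.94 ± 0.14, limma adjusted p = 0.00381). PMEL had 7901, 8514 and 8537, against 5803 and 6067 (0.49 ± 0.09, limma adjusted p = 0.01), a call that was lost without control replicate 1 (0.45, adjusted p = 0.0694).

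MLANA, with 8923, 9687 and 9208 with 17-AAG, against 6770 and 7331 in control, passed narrowly (0.40 ± 0.09, limma adjusted p = 0.0191). That call was lost without control replicate 1 (0.34, adjusted p = 0.124), without control replicate 3 (0.45, adjusted p = 0.0552) and without 17-AAG replicate 3 (0.40, adjusted p = 0.0531), and with median centring (0.40, adjusted p = 0.0569). SOX10, at 0.40 ± 0.11 (limma adjusted p = 0.0454), lost its call in 13 of 18 alternatives. CTNNA1 (-0.13 ± 0.08, limma adjusted p = 0.326) and STAT3 (0.10 ± 0.08, limma adjusted p = 0.499) were not called. Without control replicate 1, which leaves a single control array, 114 members on both sides together were called, against 187 with it.

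The strongest members under 17-AAG were ID1 and DKK1 on the upper side. ID1, an inhibitor of helix-loop-helix transcription factors and a BMP target, had signals of 49.4, 33.3 and 54.5 with 17-AAG, against 476 and 444 in control (-3.36 ± 0.22, limma adjusted p = 0.000226). DKK1, the gene of a secreted Wnt antagonist that reached 9950 on control replicate 2, had 12.5, 17.6 and 18, against 101 and 106 (-2.71 ± 0.23, limma adjusted p = 0.000503). TNFRSF21, a death receptor gene, rose by 1.40 ± 0.12 (limma adjusted p = 0.00052). On the lower side QPRT, an enzyme gene of NAD synthesis, had 768, 760 and 726, against 297 and 280 (1.38 ± 0.09, limma adjusted p = 0.000226). The long noncoding RNA LHFPL3-AS1 rose by 1.83 ± 0.12 and LONRF1 by 1.61 ± 0.11 (limma adjusted p = 0.000226 and 0.00026).

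With both drugs, 167 of the 276 genes below were called (60.5%), 117 higher and 50 lower, against 28% of all genes (16.7% higher and 11.3% lower) and 51.4% of bright genes (26.1% higher and 25.3% lower). Of the 391 genes above, 97 were called (24.8%), 73 higher and 24 lower. Of the 26 pigment cell genes that met the rule, 20 rose and 2, RAB27A and BCL2A1, fell, with a median of 0.55 (log2), against 0.11 for all genes. Over all 36 measured, 24 rose and 3 fell. MLANA had signals of 9373, 9916 and 9536 with both drugs, against 6770 and 7331 in control (0.45 ± 0.09, limma adjusted p = 0.00612), a call lost without control replicate 1 (0.39, adjusted p = 0.0518). PMEL rose by 0.56 ± 0.09 (limma adjusted p = 0.00248), TYR by 1.17 ± 0.14 (limma adjusted p = 0.000486) and SOX10 by 0.47 ± 0.11 (limma adjusted p = 0.015). The SOX10 call was lost without control replicate 1 (0.38, adjusted p = 0.109), with median centring (0.27, adjusted p = 0.261) and with probe sets of a gene averaged (0.18, adjusted p = 0.765). The MLANA call was also lost with median centring (0.25, adjusted p = 0.163) and with quantile normalisation (0.23, adjusted p = 0.0849).

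H2AC6 again led the genes above, with signals of 505, 607 and 559 with both drugs, against 63.4 and 56.3 in control (3.22 ± 0.12, limma adjusted p = 5.73e-06). FSTL1, a secreted glycoprotein gene, had 1054, 1113 and 990, against 305 and 241 (1.95 ± 0.12, limma adjusted p = 2.28e-05), and ID1 fell by 3.28 ± 0.22 (limma adjusted p = 3.6e-05). MET had 368, 378 and 304, against 49.9 and 63.7 (2.63 ± 0.25, limma adjusted p = 0.000165), which left it at its highest of the 11 arrays but well under the 2988 of control replicate 2. Among genes below, the antisense RNA TMEM132D-AS1 had 3071, 3164 and 3268, against 1091 and 1116 (1.52 ± 0.08, limma adjusted p = 1.29e-05). The membrane scaffold gene ANK2 rose by 1.91 ± 0.10 and the secreted factor gene FGFBP2 by 2.03 ± 0.11 (limma adjusted p = 1.32e-05 and 1.55e-05).

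**Figure D5:**
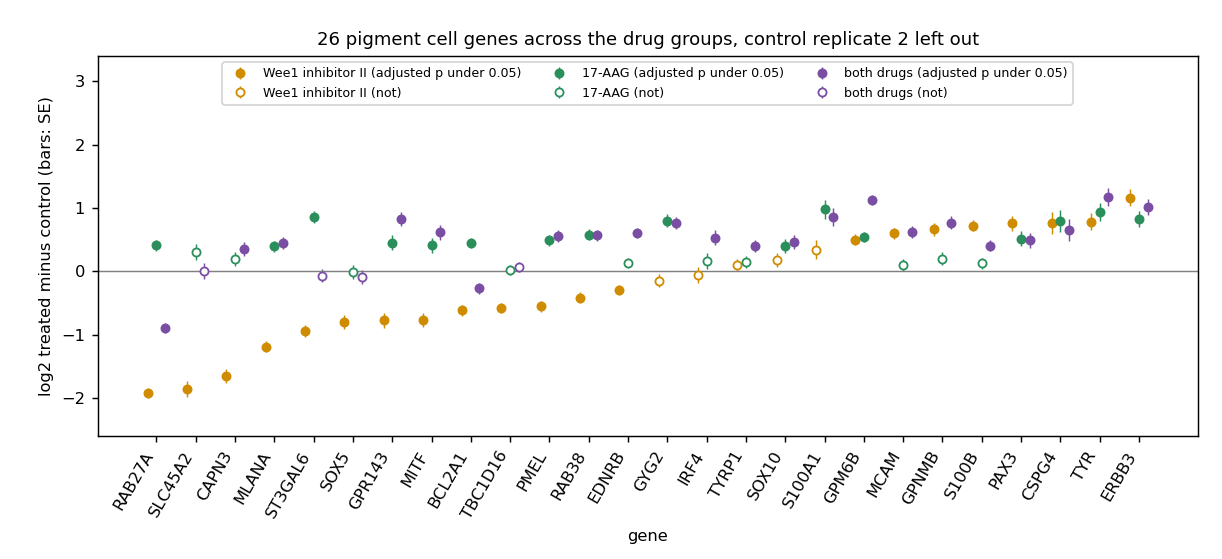
Log2 change of the 26 pigment cell genes below, each drug group minus control replicates 1 and 3, with standard errors from limma over the 11 arrays; filled points had an adjusted p under 0.05 and open points did not. Under Wee1 inhibitor II the genes ran from RAB27A at -1.92 to ERBB3 at 1.16, while under 17-AAG no filled point lay under 0.

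Epithelial and prostate genes above were seldom called in these tests. Of the 13 epithelial genes that met the rule, none was called with Wee1 inhibitor II, 1 rose with 17-AAG and 1 rose with both drugs. The shares of all genes called were 24.9%, 16.7% and 28%. Over all 50 epithelial genes measured, 4 rose and 2 fell with Wee1 inhibitor II. With 17-AAG 3 rose, and with both drugs 5 rose and 2 fell. The rule chose genes low on these 11 arrays, where 34 of the 391 genes above had a mean signal of 200 or more. The few calls are therefore no result about epithelial genes. None of HOXB13, FOXA1 and STEAP2 was called in any of the 3 comparisons, and all 3 had signals under 32 on the 11 arrays.

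Whether control replicate 2 entered the control group changed the drug results of these genes. The members were chosen because control replicate 2 lay far outside the other arrays, so adding it widens their control spread by construction. The share of all genes called with it included was not counted, so the counts below say nothing particular to the members. With it added to the control arrays, 3 of the 667 members were called with Wee1 inhibitor II, against 247 without it. With 17-AAG 1 was called, against 187, and with both drugs 8, against 264. The estimated Wee1 inhibitor II change of MLANA turned to 2.60 (adjusted p = 0.606) and that of PMEL to 3.11 (adjusted p = 0.514), both opposite in sign to the values of the 11 arrays.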

How the data were processed

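RNA of 12 samples labelled PC3 was measured, 3 per group. Per the labels' protocols, labelling with biotin started from 100 ng of RNA and used a 3-prime in vitro transcription kit for Affymetrix arrays. An intensity was deposited for each probe set on each array. The submitters' processing notes list the tools Partek 6.5 and RMA without an order of steps. The deposited intensities are on a linear scale between 0.0212 and 17908, and once 2% of values is removed at each end, every array has a mean of 150. They lack RMA's log2 scale and equal distributions, so log2 of the deposited values was taken with no further normalisation. The number of arrays limits the precision.

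Of 54675 probe sets, 62 were controls, 41091 carried 1 gene symbol in the platform annotation, 1801 several and 11721 none. A gene's probe set of highest mean signal on the 11 arrays without control replicate 2 represented it, giving 19775 genes. Of these, 37 were not found in the RefSeq table, from which chromosomes and neighbours were taken. A signal of 32 served as floor for ratios. No arrays held identical values.

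Drug groups were compared over the 11 arrays with limma 3.58.1 in R 4.3.3 (7 residual degrees of freedom, prior of 1.12 degrees of freedom, prior SD of 0.192 on the log2 scale), with Benjamini-Hochberg adjustment over all genes. The procedure, tested on simulated data for Wee1 inhibitor II against control over 19775 genes, recovered 100% of planted 4-fold changes with 15 false calls. The changes were planted only in genes with a mean signal of 200 or more, with independent normal noise. The recovery therefore does not cover dimmer genes, and 34 of the 391 genes above were that bright on the 11 arrays.

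The 21 gene lists (519 of 611 symbols measured) covered pigment, epithelial, prostate, mesenchymal, fibroblast, blood, endothelial, neuroendocrine and glial genes, genes deleted or mutated in PC3, cancer testis antigens, HLA, ribosomal, proteasome, mitosis, reference, HOX, adhesion, growth factor, cytokine and heat shock genes. Of the neuroendocrine list only ENO2 reached 200, within the range (519 against 213 to 563). Members, lists and tests were chosen with earlier results of these data known. Named genes were the 6 markers (MLANA, PMEL, SOX10, HOXB13, EPCAM and FOXA1), the 15 widest gaps per side, up to 6 members per list and side, the PC3 genes, the 3 nearest the threshold on each side of it, and the 3 smallest p per side and comparison. Other genes named for context were chosen after their values were seen. Same-numbered samples did not deviate together (15 correlations from -0.195 to 0.105), so the numbers were not taken as pairs. Alternatives were quantile normalisation, median centring, other choices of probe set, other thresholds, the floor, single arrays left out, a replicate block and control replicate 2 included.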

Additional observations from a re-analysis of the deposited data

How the results depend on the processing

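The count of genes above (391) was 257 at 8-fold, 798 at 2-fold and 279 at a signal minimum of 400. It was 291 with probe sets of a gene averaged and 582 against the other 2 control arrays only. With each of the 11 arrays left out it was 392 to 395. At a signal minimum of 100 the counts were 524 above and 383 below. With every probe set on its own they were 495 and 294. The count below (276) was 148 with probe sets of a gene averaged, 175 at 8-fold, 650 at 2-fold, 162 at a signal minimum of 400, 452 against the other 2 control arrays only, and 276 to 282 with each of the 11 left out. It was 422 where the highest rather than the lowest of the 11 had to reach 200, an alternative chosen after seeing the data. Members called against control (247 with Wee1 inhibitor II, 187 with 17-AAG, 264 with both drugs) fell to 3, 1 and 8 with control replicate 2 included. With probe sets of a gene averaged they were 164 with Wee1 inhibitor II and 107 with 17-AAG. With each array left out they ran from 179 to 245, 114 to 180 and 192 to 264; without control replicate 1, 114 were called with 17-AAG, and the lone control array was assumed to vary like the other groups. With the replicate block they were 223, 157 and 242, and the pairing ended only the 17-AAG call of MLANA (0.40, adjusted p = 0.0562) among the single genes tested. Over 24 single-gene results and 414 alternative values, 360 kept direction and side of the threshold, 34 lost a call and 20 changed sign, 2 of them of a change called over the 11 arrays. With control replicate 2 included, these 2 were the Wee1 inhibitor II changes of MLANA (2.60 against -1.19) and PMEL (3.11 against -0.55). The other 18 were of changes not called under either setting. With control replicate 2 included, HOXB13 turned to -2.06, -2.57 and -2.49 (Wee1 inhibitor II, 17-AAG, both drugs), FOXA1 to -1.72 with Wee1 inhibitor II, and CTNNA1 to 3.49 with 17-AAG and 3.48 with both drugs. With median centring, SOX10 turned to -0.054 with Wee1 inhibitor II and STAT3 to -0.055 with both drugs. With probe sets averaged, SOX10 turned to -0.014 with Wee1 inhibitor II, and STAT3 to -0.12 with 17-AAG and -0.091 with both drugs. With each array left out, the 17-AAG changes ran from -0.59 to 0.26 for EPCAM, -0.61 to 0.35 for FOXA1 and -0.092 to 1.11 for HOXB13, and FOXA1 ran from -0.64 to 0.36 with both drugs. The cause was not tested for these changes, except that stricter or looser thresholds admit fewer or more genes by construction. Including control replicate 2 likewise widens the control spread of the members by construction, since they were chosen by its distance from the other arrays. Signals under 32 are near background, so fold changes of dim genes are rough.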
